A study of Mus musculus with 18 samples.

Results

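The genes described here were 10 regulators of the primitive streak and early mesoderm, chosen by their symbols and with earlier results of these data known. They were T, Mixl1, Tbx6, Fgf8, Wnt3, Evx1, Mesp1, Gsc, Foxa2 and Msgn1, of 14804 genes with a row in at least 1 of the 3 expression tables. Values were used for 8 of them in ESCs (embryonic stem cells), for 6 in TSCs (trophoblast stem cells; T, Mixl1, Tbx6, Gsc, Foxa2 and Wnt3) and for 2 in XEN cells (extra-embryonic endoderm cells; Tbx6 and Foxa2). Mesp1 and Msgn1 were not analysed here, nor were the other missing members in TSCs and XEN cells. Each member with a row also passed the filter on low values (more than 0.4 TPM in 2 or more of 6 libraries), although Wnt3 did so in ESCs only through 1 day 2 library and both day 7 libraries.

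Bulk RNA-seq was made from mouse cells in normoxia (20% O2) or in hypoxia (2% O2) for 2 or 7 days, with 2 biological replicates per condition and thus 6 libraries for each cell type, 18 together. The ESCs were of the wild-type E14 line, grown without feeders in serum and LIF. TSCs, whose line the labels do not name, were grown on fibroblast feeders with FGF4 and heparin, and XEN cells on gelatin in medium partly conditioned on feeders. No gene was edited, and hypoxia was the only treatment. The libraries held between 35592641 and 75204029 reads, recovered from the deposited TPM (a level per gene that sums to the same total in each library, here divided by gene length with introns). In every group, all 10 pluripotency markers were above 1 TPM in both ESC libraries, all 10 trophoblast markers in both TSC libraries and all 10 primitive endoderm markers in both XEN libraries.

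The primitive streak is the site at the posterior of the embryo where epiblast cells become mesoderm and definitive endoderm. The WNT3 ligand starts the programme with NODAL. The T-box factors T and TBX6 and homeobox factors such as MIXL1 and EVX1 carry it out, while FGF8 is needed for new mesoderm to leave the streak. GSC and FOXA2 mark its anterior end, from which axial mesoderm and endoderm come. ESCs are kept in a state before this step, in which such genes are low and vary between cells.

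Of the 10 members, 8 had a promoter window in the RefSeq table for GRCm38.p6, which runs from 250 bases before the start of a gene to 50 after it. The windows of T and Wnt3 are shown because their levels followed each other most closely among the members in ESCs, and that of Tbx6 because it was DE with T in TSCs. All 3 genes lie on the plus strand, and the windows are chr17:8434173-8434472 (T), chr11:103773925-103774224 (Wnt3) and chr7:126781233-126781532 (Tbx6). Capitals mark matches to any of the motifs searched.
T: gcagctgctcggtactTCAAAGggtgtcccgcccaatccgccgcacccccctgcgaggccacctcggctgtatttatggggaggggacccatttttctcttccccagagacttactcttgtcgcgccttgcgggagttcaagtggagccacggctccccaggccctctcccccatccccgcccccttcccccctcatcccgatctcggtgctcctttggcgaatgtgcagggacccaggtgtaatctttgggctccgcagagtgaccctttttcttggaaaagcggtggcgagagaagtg
Wnt3: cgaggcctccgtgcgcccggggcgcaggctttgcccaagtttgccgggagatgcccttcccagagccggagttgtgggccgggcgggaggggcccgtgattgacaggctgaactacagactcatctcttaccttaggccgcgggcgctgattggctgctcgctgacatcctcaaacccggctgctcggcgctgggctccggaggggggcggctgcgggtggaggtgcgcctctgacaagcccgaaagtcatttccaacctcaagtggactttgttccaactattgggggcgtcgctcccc
Tbx6: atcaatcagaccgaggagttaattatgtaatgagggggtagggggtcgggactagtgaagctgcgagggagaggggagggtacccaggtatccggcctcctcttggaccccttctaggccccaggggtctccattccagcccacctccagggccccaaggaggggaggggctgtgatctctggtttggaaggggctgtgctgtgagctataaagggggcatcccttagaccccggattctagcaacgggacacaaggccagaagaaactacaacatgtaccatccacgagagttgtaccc
The motifs, searched on both strands, were CTTTGA (the core bound by TCF/LEF, the factors through which WNT acts), ACGTG and GCGTG (cores of the hypoxia response element bound by HIF) and GGTGTGA (a T-box core). The T window held a single match, to CTTTGA on the minus strand beginning at base -234 from the start, and the Wnt3 and Tbx6 windows held none. The 6 members with both expression values and a window had 8 windows, of which 2 held CTTTGA, 3 GCGTG (all of Foxa2), 0 ACGTG and 0 GGTGTGA. Of all 32851 windows of the table, 16.0% held CTTTGA, 19.6% ACGTG, 32.4% GCGTG and 3.98% GGTGTGA. Matches in the member windows did not overlap each other, and a match is a description of the letters only.

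In normoxia, the members were low in ESCs. For levels between genes, TPM was computed again from the recovered reads per exon length. On that scale Evx1 was highest with a level of 8.31 ± 1.90 (SD, n = 2), followed by T with 4.45 ± 0.50 and Fgf8 with 2.01 ± 1.08. Both libraries of Evx1 were above both of T, and both of T above both of Fgf8. Wnt3 (1.46 ± 0.042), Gsc (1.07 ± 1.05), Foxa2 (1.03 ± 0.18), Mixl1 (1.02 ± 0.54) and Tbx6 (0.635 ± 0.419) followed, and the libraries of neighbours in this order overlapped from Fgf8 down. T stood above 27.6% of the genes of the ESC table and Tbx6 above 7.22%.

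TSCs and XEN cells had another order, although levels cannot be set across the tables with a test, since each was normalized separately. In TSCs in normoxia, Wnt3 led with a level per exon length of 18.3 ± 10.6 (SD, n = 2), above 46.0% of the genes of that table. Foxa2 (4.30 ± 0.43), Gsc (3.37 ± 1.84), Mixl1 (1.59 ± 0.84), Tbx6 (1.05 ± 0.10) and T (0.811 ± 0.299) followed, and each overlapped the next. In XEN cells Foxa2, a forkhead factor that primitive endoderm also uses, had a level per exon length of 228 ± 26.6 and stood above 93.2% of the genes of the table, while Tbx6 was at 0.956 ± 0.013. The span of Wnt3 is 14.2 times as long as its exons, and by the deposited TPM it took place 8 among the ESC members in normoxia, against place 4 per exon length.

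**Figure D1:**
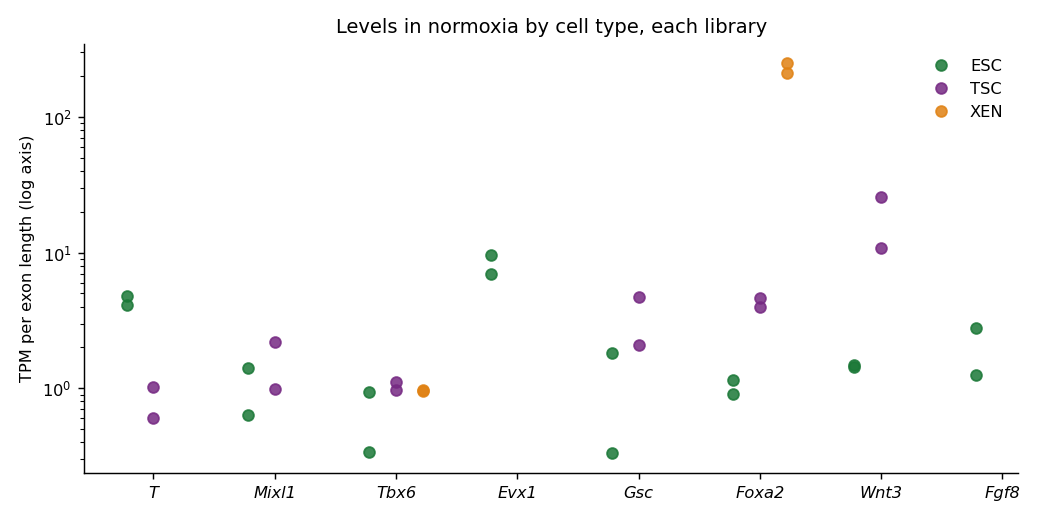
Levels of the members in normoxia, as TPM per exon length on a log axis, with a point for each library and a colour for each cell type. Evx1 and T lead in ESCs, Wnt3 in TSCs and Foxa2, at 228 on average, in XEN cells.

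After 7 days of hypoxia, 3 members were higher in ESCs than in normoxia, namely T and the ligands Wnt3 and Fgf8. Mixl1 was at higher values in both libraries without passing the test, Tbx6, Gsc and Foxa2 did not pass it, and Evx1 was at lower values. The 3 DE members were thus 3 of the 8 tested, where 0.758% of the 12271 genes tested in ESCs were called in this comparison in either direction. Because the members were chosen with earlier results of these data known, this contrast is a description and not a test. Calls are from limma on log2(TPM + 0.5), for a fold change above 1.5 and a p of 0.1 or less after Benjamini-Hochberg adjustment over all genes tested. In bulk libraries, more cells with a transcript and more of it in each cell cannot be told apart.

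WNT3 is the ligand that starts streak formation. Wnt3 (chr11:103774150-103817957, plus strand, GRCm38) had TPM of 0.304 and 0.307 in normoxia, 0.354 and 0.521 after 2 days of hypoxia and 1.48 and 1.03 after 7 days. The normoxic libraries were nearly equal, those of day 2 were slightly above them, and both of day 7 were above every other. The recovered reads were 102 in all in normoxia, 194 on day 2 and 464 on day 7. The log2 fold change of day 7 against normoxia was 1.11 ± 0.21 (SE), with a limma adjusted p of 0.0813, and that of day 2 was 0.21 (adjusted p of 0.987). As the level of Wnt3 is under the pseudocount in normoxia, its fitted change depended on it, and was 1.72 with a pseudocount of 0.1 and 2.03 with voom on the recovered reads.

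FGF8 signals through ERK to mesoderm leaving the streak. Fgf8 (chr19:45736798-45742915, minus strand) had TPM of 0.829 and 1.80 in normoxia, 1.64 and 1.77 after 2 days of hypoxia and 5.84 and 3.89 after 7 days. The day 2 libraries lay within the range of normoxia, and both day 7 libraries were above all others. On day 7 against normoxia it had a log2 fold change of 1.59 ± 0.29 (limma adjusted p of 0.0803). Against day 2 it was 1.26 ± 0.29 and did not pass the test (adjusted p of 0.409), and the same p was found for Wnt3, at 0.90 ± 0.21.

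T (Brachyury) is the T-box factor by which the streak is defined. T (chr17:8434423-8442496, plus strand) had TPM of 4.16 and 3.45 in normoxia, 4.17 and 5.80 after 2 days of hypoxia and 19.0 and 15.8 after 7 days. The libraries of day 2 were just above those of normoxia, and those of day 7 were far above both. Day 7 had a log2 fold change of 2.05 ± 0.21 against normoxia (limma adjusted p of 0.00739) and 1.72 ± 0.21 against day 2 (adjusted p of 0.0332), while day 2 against normoxia gave 0.34 ± 0.21 (adjusted p of 0.986). By its unadjusted p, T took place 11 of all genes tested for day 7 against normoxia and place 10 for day 7 against day 2. Per exon length its level on day 7 was 20.2 ± 2.50 (SD, n = 2), above 52.1% of the genes of the table, and the highest of the members. Fgf8 (7.35 ± 2.03), Wnt3 (5.96 ± 1.45) and Evx1 (4.80 ± 1.44) came next, with both libraries of T above all of theirs. The libraries of Fgf8 overlapped with those of Wnt3, and those of Wnt3 with those of Evx1.

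**Figure D2:**
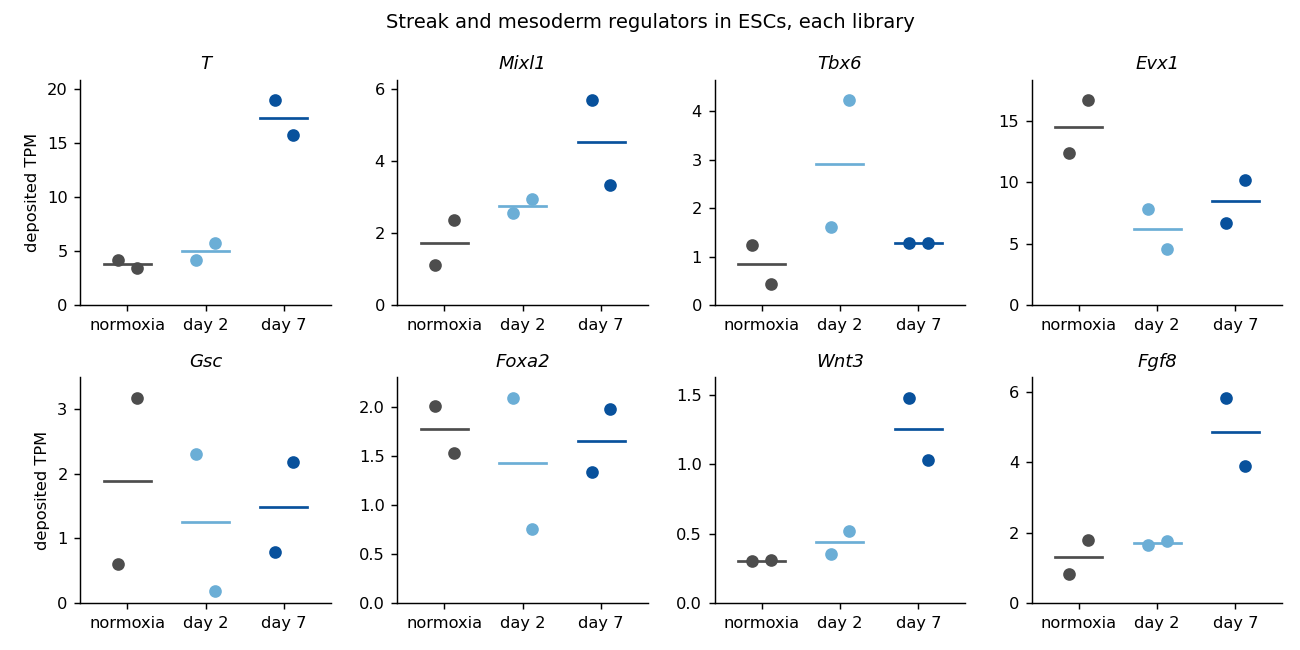
Deposited TPM of the 8 members in each ESC library of the 3 conditions, with a point for each library and a line at the mean of 2. In T, Wnt3, Fgf8 and Mixl1 both day 7 points are above both normoxic points, and in Tbx6 they are only just above the higher one. In Evx1 both are below, and in Gsc and Foxa2 the groups overlap.

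The other factors of the streak and its derivatives split. TBX6 directs cells of the streak to paraxial mesoderm. Tbx6 (chr7:126781483-126785560, plus strand) had TPM of 1.24 and 0.440 in normoxia, 1.60 and 4.22 after 2 days of hypoxia and 1.29 and 1.28 after 7 days. Both day 2 libraries were above all others but were far apart, and day 7 was just above the higher normoxic library. Its log2 fold change was 1.30 ± 0.40 on day 2 (limma adjusted p of 0.775) and 0.48 ± 0.40 on day 7 (adjusted p of 0.904), on 24 recovered reads in all in normoxia, 121 on day 2 and 43 on day 7.

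MIXL1 is a homeobox factor of mesendoderm. Mixl1 (chr1:180693043-180697034, minus strand) had TPM of 1.11 and 2.36 in normoxia, 2.56 and 2.96 after 2 days of hypoxia and 5.69 and 3.34 after 7 days. The 3 groups did not overlap, with normoxia lowest and day 7 highest. The log2 fold change of day 7 against normoxia was 1.18 ± 0.32 with a 95% interval from 0.46 to 1.91, and its limma adjusted p of 0.269 did not pass.

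EVX1 is a homeobox factor of the posterior streak. Evx1 (chr6:52313498-52318378, plus strand) had TPM of 12.4 and 16.7 in normoxia, 7.82 and 4.56 after 2 days of hypoxia and 6.72 and 10.2 after 7 days. Every hypoxic library was below both normoxic libraries. Its log2 fold change was -1.20 ± 0.29 on day 2 (limma adjusted p of 0.568) and -0.76 ± 0.29 on day 7 (adjusted p of 0.529), so neither was called. An antisense gene, Evx1os, shares 1335 bases with Evx1, and as the sources used here do not state that reads were counted by strand, the reads of both cannot be told apart.

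GSC, a homeobox factor of the organizer, and FOXA2 mark the anterior streak. Gsc (chr12:104471209-104473330, minus strand) had TPM of 0.598 and 3.17 in normoxia, 2.31 and 0.182 after 2 days of hypoxia and 0.792 and 2.19 after 7 days. Foxa2 (chr2:148042877-148046969, minus strand) had 2.01 and 1.54 in normoxia, 2.10 and 0.756 after 2 days of hypoxia and 1.33 and 1.98 after 7 days. The replicates of each group differed as much as the groups did, and all groups overlapped. For day 7 against normoxia, the log2 fold change was -0.11 for Gsc, with a 95% interval from -1.75 to 1.53, and -0.083 for Foxa2, with an interval from -0.85 to 0.68.

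Day 2 of hypoxia gave no call for the members in ESCs. None of 8 was called by limma, where 0% of the genes tested were called, so the lack of calls does not set the members apart. Of the members, 2 (Tbx6 and Evx1) had an unadjusted p under 0.05, and voom on the recovered reads also called 0. The libraries of the groups did not overlap for 5 of 8 members, 4 higher and 1 lower, where this held for 30.8% of all genes tested. For day 7 against normoxia they did not overlap for 6 of 8, 5 higher and 1 lower, against 40.5% of all genes. For day 7 against day 2, 1 member (T) was called, where 0.179% of genes were, and 5 of 8 did not overlap, against 24% of all genes. The median log2 fold change of the 8 members was 0.27, 0.80 and 0.51 in the 3 comparisons, and that of all genes tested 0.0096, 0.022 and 0.012.

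**Figure D3:**
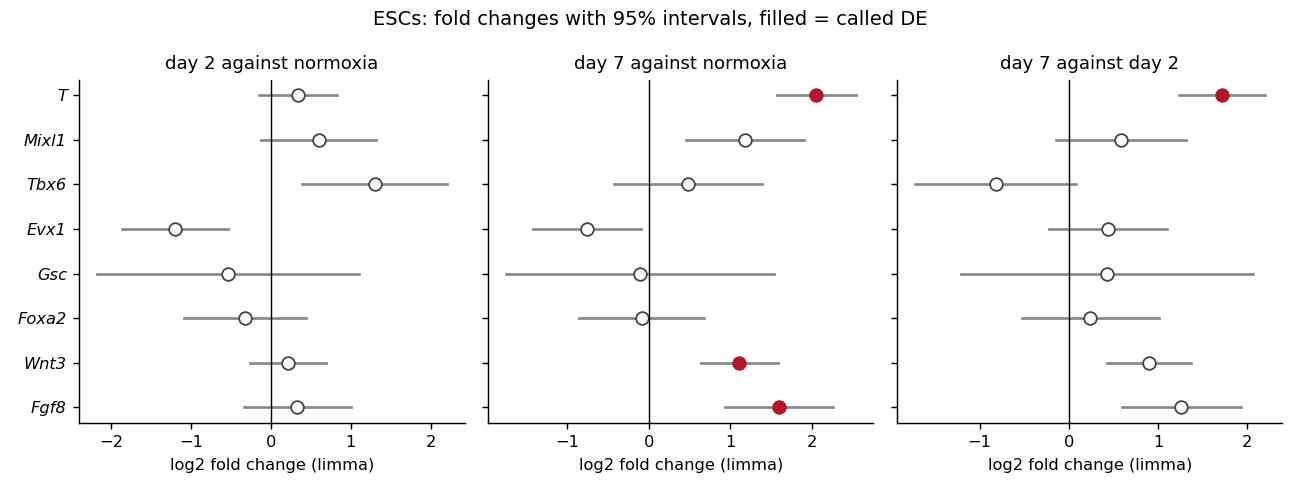
Log2 fold changes of the 8 members in ESCs by limma on log2(TPM + 0.5), with bars for the 95% interval and filled points for genes called DE. T is filled for day 7 against normoxia (2.05) and against day 2 (1.72), Wnt3 and Fgf8 only against normoxia, and no point is filled on day 2.

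The calls in ESCs rested on few libraries. With 1 replicate left out, a group is down to a single library whose spread is taken from the others. T on day 7 against normoxia was called by limma without either day 2 library (adjusted p of 0.00044 in both) and without day 7 replicate 2 (adjusted p of 0.0492), and was lost without normoxia replicate 1 (0.111), normoxia replicate 2 (0.224) or day 7 replicate 1 (0.119). Its log2 fold change stayed between 1.92 and 2.18. Wnt3 and Fgf8 were called only without either day 2 library (adjusted p of 0.0174 for both), when 322 (without replicate 1) and 319 (without replicate 2) of all 12271 genes were called in place of 93. Without normoxia replicate 1, normoxia replicate 2, day 7 replicate 1 or day 7 replicate 2 the adjusted p of Wnt3 was 0.436, 0.688, 0.620 or 0.147, and that of Fgf8 was 0.427, 0.255, 0.555 or 0.130. Mixl1 was called without day 2 replicate 1 (adjusted p of 0.0951) and without day 2 replicate 2 (adjusted p of 0.0947). Without day 2 replicate 1, Tbx6 and Evx1 were called on day 2 (adjusted p of 0.0287 and 0.0293), at log2 fold changes of 1.88 and -1.56, in a fit that called 493 of all genes for day 2 against normoxia.

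T and Wnt3 followed each other across the 6 ESC libraries. Pearson's r of log2(TPM + 0.5) with T was 0.988 for Wnt3, 0.911 for Fgf8, 0.776 for Mixl1, 0.099 for Tbx6, -0.078 for Foxa2, -0.12 for Gsc and -0.35 for Evx1. Of 1205 genes with a range of at least 1 on that scale, the 5 most like T were Gm29776 (0.989), 1700013H16Rik (0.989), Wnt3, Loxl4 (0.987) and Xlr4c (0.987). Loxl4 encodes a lysyl oxidase of the extracellular matrix, and its TPM was 0.488 and 0.512 in normoxia, 0.531 and 0.842 after 2 days of hypoxia and 2.64 and 1.77 after 7 days. These r describe 6 libraries that share their conditions, and so mostly the distance of the 2 day 7 libraries from the other 4.

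Most other genes of gastrulation were not called in ESCs on day 7, which does not show that they were unchanged. Of 33 other streak, node and mesoderm genes tested, 2 were DE, both higher, where 0.758% of all genes tested were called in either direction. Without regard to the adjusted p, 4 of the 33 were past the fold change threshold upward and 3 downward. At an unadjusted p under 0.05, 3 were higher and 4 lower. Nkx1-2, a homeobox gene of the caudal epiblast, had TPM of 0.333 and 0.519 in normoxia and 3.62 and 3.29 on day 7 (log2 fold change of 2.10 ± 0.21, limma adjusted p of 0.00714). Hand1, a bHLH gene of lateral and extra-embryonic mesoderm that trophoblast also uses, had 2.16 and 2.07 in normoxia and 12.7 and 8.32 on day 7 (2.04 ± 0.26, adjusted p of 0.0222). The median log2 fold change of the list was 0.14. By limma, 0 of 13 WNT targets and feedback genes were called (3 at an unadjusted p under 0.05, median of 0.014), 0 of 17 NODAL pathway genes (2, median of 0.22), 0 of 12 FGF synexpression and ERK feedback genes (2, median of 0.021) and 0 of 14 neural and ectoderm regulators (4, median of -0.30). With voom, 1 NODAL pathway gene was called (Furin, a convertase gene named for this count after its values were seen) and 0 genes of the other 3 lists. Beside these medians, that of all genes tested was 0.022 and that of the members 0.80.

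Marker genes of other cells and states were read beside these values. None of 10 pluripotency markers was called by limma on day 7 in ESCs (1 at an unadjusted p under 0.05, 0 called with voom), and their median log2 fold change was -0.12. Of the trophoblast markers, 9 were tested in ESCs, none was at 0 in any library, and limma and voom called 0, but all 9 had a log2 fold change above 0 (5 at an unadjusted p under 0.05, median of 0.55). Their summed level per exon length was 236 and 203 in normoxia. It was 231 and 298 after 2 days of hypoxia and 551 and 349 after 7 days. The day 7 replicate with the larger sum was also the higher in T, Wnt3, Fgf8 and Mixl1. The single markers, named here after their values were seen, did not all follow the sum. Krt8 (TPM of 131 and 50.5 on day 7) and Krt18 (200 and 78.0) were far higher in that replicate. Cdx2, Tead4 and Bmp4 were slightly higher in it, and Eomes, Tfap2c, Gata3 and Esx1 were lower. Eomes and Bmp4 stand in this list and in that of other streak genes. Of 9 primitive endoderm markers tested, limma called 0 (2 at an unadjusted p under 0.05, 1 called with voom), with a median of 0.093. Of 5 fibroblast markers tested, Col1a1 was higher (TPM of 1.58 and 1.53 in normoxia, 15.1 and 6.05 on day 7, log2 fold change of 2.30 ± 0.37, limma adjusted p of 0.0544). Of these 5, 2 had an unadjusted p under 0.05 and voom called 2, the second being Col1a2, named after its values were seen (TPM of 0.104 and 0.220 in normoxia, 1.14 and 0.679 on day 7). Only 2 of the 5 had a log2 fold change above 0, and the median of the list was -0.020. Col1a1 too was higher in the day 7 replicate that was higher in T. The part of these cells or states in the result was not tested. Of 16 hypoxia response genes, 15 had a log2 fold change above 0 on day 2 (median of 1.02, 12 at an unadjusted p under 0.05, 0 called by limma or voom). Those of T, Wnt3 and Fgf8 were then between 0.21 and 0.34, with Mixl1 at 0.60 and Tbx6 at 1.30. Gsc, Foxa2 and Evx1 were below 0, with Evx1 lowest at -1.20. On day 7, 15 of the hypoxia response genes were above 0 again (median of 1.08). Of these limma called 2, Slc16a3 (2.07) and Ldha (0.99), which encode a lactate exporter and a lactate dehydrogenase.

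In TSCs, T and Tbx6 were lower on day 7 than on day 2, and no member was called against normoxia. Those 2 of 6 members were called in a comparison in which 16.2% of the 12481 genes tested were called. That comparison had 296 genes higher and 1723 lower, and 724 higher and 982 lower after median-ratio scaling of the libraries, since the median log2 fold change of all genes was -0.24 before that scaling and 0.012 after it. T was at -2.06 and Tbx6 at -1.42 after it, and both were still called. The 2019 genes called fell to 0 without day 7 replicate 2, to 30 without day 2 replicate 1 and to 284 without day 7 replicate 1.

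T in TSCs had TPM of 0.547 and 0.910 in normoxia, 1.80 and 1.65 after 2 days of hypoxia and 0 and 0 after 7 days. The 3 groups did not overlap, with day 2 highest and no recovered read in either day 7 library. The recovered reads were 15 and 27 in normoxia and 58 and 53 on day 2. Against the limit of 3 reads per library that a count of 0 allows, T on day 7 was at least 16.9-fold lower than on day 2 and at least 7.19-fold lower than in normoxia. These bounds take each read as independent, although per the paper the sequencing was paired-end. Were both mates of a pair counted, the bounds would be lower. The limma adjusted p was 0.0161 against day 2 and 0.173 against normoxia, and for day 2 against normoxia it was 0.263, at a log2 fold change of 0.87 ± 0.26. The fitted log2 fold change of day 7 against day 2, -2.15 ± 0.26, is no bound, as it was -1.45 with a pseudocount of 1, -4.19 with 0.1 and -6.68 with voom. T against normoxia was called with a pseudocount of 0.1 (adjusted p of 0.0824) and with voom (adjusted p of 0.0963).

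Tbx6 in TSCs had TPM of 1.37 and 1.54 in normoxia, 6.09 and 2.65 after 2 days of hypoxia and 0.820 and 1.13 after 7 days. As for T, the groups did not overlap, with day 2 highest and day 7 lowest, but the day 2 libraries were far apart. The log2 fold change was 1.22 ± 0.38 for day 2 against normoxia (limma adjusted p of 0.275) and -1.64 ± 0.38 for day 7 against day 2 (adjusted p of 0.0481). The call of Tbx6 was lost with voom (adjusted p of 0.121) and without day 2 replicate 1 (0.232), day 7 replicate 1 (0.167) or day 7 replicate 2 (0.219), and that of T without day 2 replicate 1 (0.129) or day 7 replicate 2 (0.172).

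The remaining members in TSCs were not called in any comparison. Wnt3 had TPM of 5.76 and 2.37 in normoxia, 2.33 and 1.64 after 2 days of hypoxia and 3.27 and 3.98 after 7 days. Unlike in ESCs, its day 2 libraries were the lowest, and day 7 lay within the range of normoxia. Its log2 fold change was -0.79 ± 0.40 on day 2 (limma adjusted p of 0.451) and -0.044 ± 0.40 on day 7, with a 95% interval from -0.99 to 0.90. Gsc had TPM of 8.88 and 3.85 in normoxia, 4.50 and 5.46 after 2 days of hypoxia and 3.39 and 2.51 after 7 days, and its log2 fold change on day 7 was -0.90 ± 0.39 (adjusted p of 0.499). Day 7 was below both other groups for Gsc, while Mixl1 (between 1.45 and 3.98 over the 6 libraries) and Foxa2 (between 5.20 and 8.98) overlapped between all groups.

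For day 2 against normoxia in TSCs, limma called 0 of 6 members, where 0.2% of all genes were called, 2 (T and Tbx6) had an unadjusted p under 0.05, and voom called 0. For day 7 against normoxia it called 0, where 0.385% of all genes were called, 1 (T) had an unadjusted p under 0.05, and voom called 1. The groups did not overlap for 3 of 6 members in the first comparison, 3 of 6 in the second and 4 of 6 for day 7 against day 2, where this held for 47.4%, 41.3% and 59.3% of all genes. These shares are close to the background, and the medians of the members, 0.26, -0.34 and -0.61, stood beside 0.069, -0.18 and -0.24 of all genes.

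**Figure D4:**
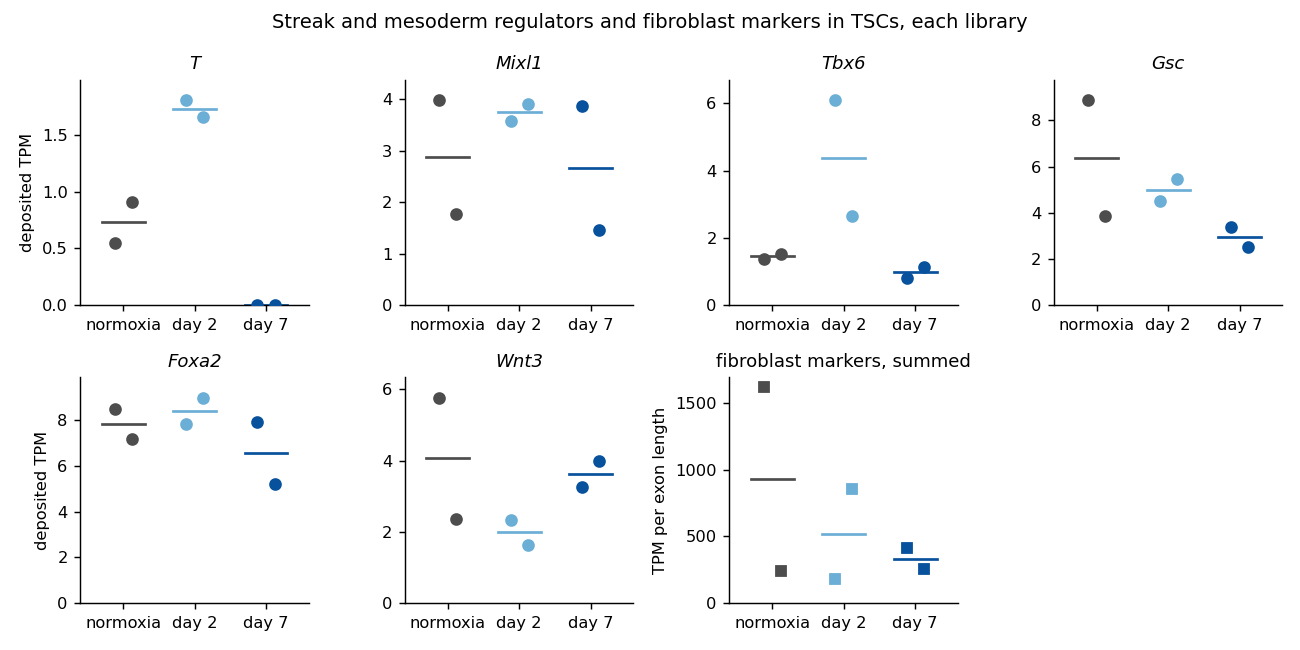
Deposited TPM of the 6 members in each TSC library, with a point for each library and a line at the mean of 2, and the summed level per exon length of 12 fibroblast markers (squares). T is at 0 in both day 7 libraries, Tbx6 is highest on day 2, and the fibroblast sum differs between replicates, from 1620 to 239 in normoxia.

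Markers of fibroblasts, the feeder cells of the TSC culture, stood at unequal levels in the TSC libraries. Their summed level per exon length over 12 genes was 1620 and 239 in normoxia, 180 and 855 after 2 days of hypoxia and 409 and 257 after 7 days, and none of the 12 was at 0 in any library. Within each of the 3 groups, the library with more of them had the higher Gsc, Mixl1 and Foxa2 and the lower Tbx6. It had the higher Wnt3 in normoxia and the lower Wnt3 on days 2 and 7, and the lower T in normoxia and on day 2. The part of feeder RNA in the levels of the members was not tested.

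Many genes of the trophoblast stem cell state were lower on day 7 than on day 2 in TSCs together with T and Tbx6. Over all 12481 genes tested, 16.2% were called in this comparison, 1723 lower and 296 higher. After median-ratio scaling 982 were lower and 724 higher. Of 10 trophoblast markers, 6 fell and 1 rose, with Elf5 (log2 fold change of -2.30), Cdx2 (-1.68) and Eomes (-1.55) lower and the keratin gene Krt8 (1.23) higher. Of 7 pluripotency genes tested, 4 fell, Sox2 most (-2.85), then Nanog (-1.96) and Esrrb (-1.91), of which Sox2 and Esrrb are also genes of TSCs. Of 13 FGF synexpression and ERK feedback genes, 8 fell, with the receptor gene Fgfr4 (-2.89), the ERK inhibitor gene Spry1 (-2.84) and Il17rd (-1.92) first, and the median of the list was -1.29. Of 14 NODAL pathway genes 6 fell, among them the protease gene Pcsk6 (-2.10), Nodal itself (-1.86) and Foxh1 (-1.82), the gene of a nuclear factor of that pathway. Of 29 other streak, node and mesoderm genes, 10 fell, led by Tcf15 (-3.41), Chrd (-1.60) and Gata4 (-1.60), and 2 rose, Pdgfra (1.55) and Snai1 (1.20). Of 14 WNT targets and feedback genes 1 fell, Apcdd1 (-1.50), and of 13 neural and ectoderm regulators 4 fell, among them Zic2 (-3.17) and Pax6 (-1.14). Each of these genes passed the limma threshold at an adjusted p of 0.0937 or less. These counts rest on single libraries: without day 7 replicate 2 no gene of these lists was called, and the FGF and ERK feedback genes that fell were 1 without day 2 replicate 1 and 5 without day 7 replicate 1, the trophoblast markers 2 and 1, and the other streak, node and mesoderm genes 1 and 1. Of 16 hypoxia response genes, 5 rose on day 2 and 8 fell from day 2 to day 7, with Slc2a3 (-3.12), Pdk1 (-2.44) and Aldoc (-2.35) first, and their median on day 7 against normoxia was 0.58. The part of these changes in the values of T and Tbx6 was not tested.

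**Figure D5:**
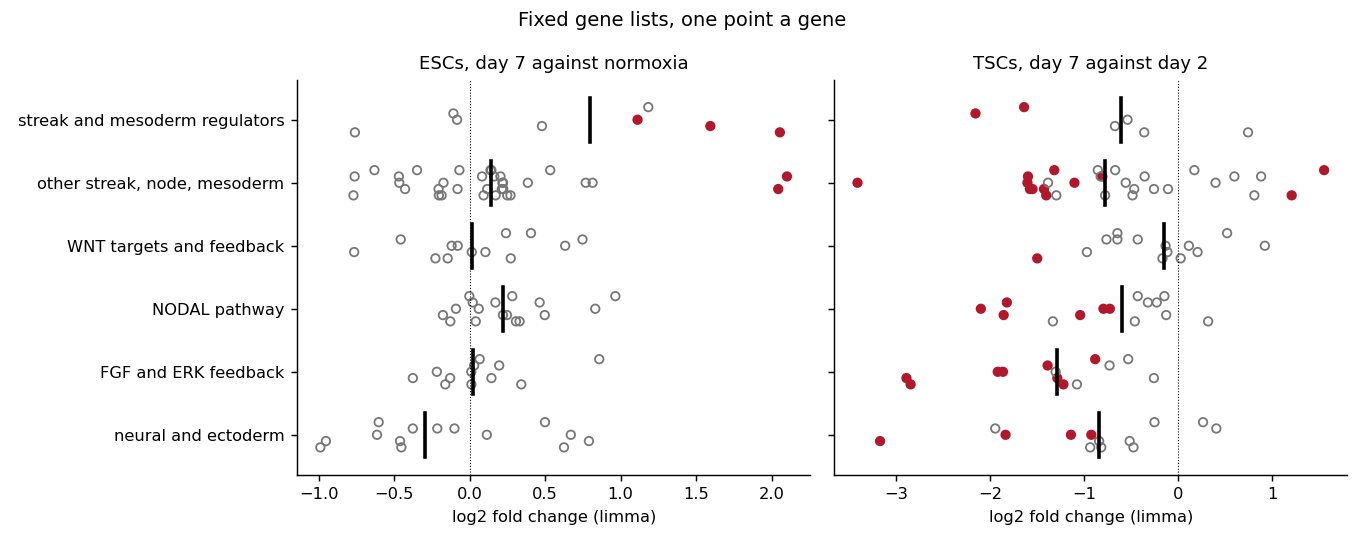
Log2 fold changes of the genes of each list by limma, for day 7 against normoxia in ESCs and day 7 against day 2 in TSCs, with a point for each gene tested, filled where called DE, and a bar at the median of the list. In ESCs the members have the highest median (0.80) of the 6 lists, and in TSCs FGF and ERK feedback genes have the lowest (-1.29).

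In XEN cells, neither member was called in any comparison. Foxa2 had TPM of 465 and 394 in normoxia, 396 and 341 after 2 days of hypoxia and 351 and 397 after 7 days, and Tbx6 had 1.36 and 1.39, 0.983 and 1.10, and 2.93 and 0.659. The groups of Foxa2 overlapped, and the day 7 libraries of Tbx6 lay on either side of all others. Foxa2 had log2 fold changes of -0.22 ± 0.16 on day 2 and -0.20 ± 0.16 on day 7, with 95% intervals from -0.61 to 0.17 and from -0.59 to 0.19. In these comparisons limma called 0% of the 10894 genes tested on day 2, 0.11% on day 7 and 0.0367% for day 7 against day 2. No member had an unadjusted p under 0.05 there, and voom called 0.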

How the data were processed

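RNA-seq was analysed from 18 libraries of ESCs, TSCs and XEN cells, with 2 replicates per condition. The authors deposited TPM in a table for each cell type. Per the labels, the authors trimmed reads with cutadapt 2.4, aligned them with STAR 2.7.5a to mm10, used StringTie 2.0.6 and featureCounts, and filtered with edgeR 3.26.8. Per the paper, only protein-coding genes over 0.4 CPM in 2 or more of 6 libraries were kept. The columns of day 0 were taken as normoxia. Each table was normalized on its own, so no test was made between cell types.

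The deposited TPM times gene span (end minus start, GENCODE M21 on GRCm38) fell within 0.05 of whole multiples of a step per library for nearly all values, which gave back the reads. Levels between genes were computed from these reads per exon length.

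Genes over 0.4 TPM in 2 or more of 6 libraries were fitted as log2(TPM + 0.5) with limma 3.58.1 in R 4.3.3 (mean-variance trend, 6 libraries of a cell type). Genes were DE with a fold change above 1.5 and a Benjamini-Hochberg adjusted p of 0.1 or less. An exact permutation test of 2 against 2 libraries cannot go below p = 0.333 and was not used. Intervals cover the spread between libraries, and the limit of 3 reads covers counting error only. Alternatives were pseudocounts of 0.1 and 1, no filter and a TPM above 1, median-ratio scaling, the replicate number as a block, no trend, fits to the 4 libraries compared, voom on recovered reads, and each library left out. The labels number replicates without saying what a number shares, so p-values measure the spread between these samples. Both scripts for tests and reads were tested on simulated data. Python 3.11.15, pandas 2.3.3 and matplotlib 3.10.9 were used.

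The members and lists were chosen with earlier results of these data known. Named genes were all members, at most the 3 largest DE changes in each direction per list and comparison, and the 5 genes most like T in ESCs, and a result that this rule names is not reported here. No column was left unmapped (0).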

Additional observations from a re-analysis of the deposited data

Results flagged for a closer look

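In 5 cases the libraries of the 2 groups did not overlap, in one direction in one cell type and in the opposite direction in another. None of these differences was tested, because the tables were normalized separately. The share of all genes with such opposite directions was not computed. Groups without overlap held for 24% to 59.3% of the genes tested, by comparison in ESCs and TSCs, so the 5 cases are a description only. T on day 7 against normoxia had a log2 fold change of 2.05 in ESCs and -1.28 in TSCs, and on day 7 against day 2 of 1.72 in ESCs and -2.15 in TSCs. Tbx6 on day 2 against normoxia was at 1.30 in ESCs and 1.22 in TSCs and at -0.28 in XEN cells, and on day 7 against normoxia at 0.48 in ESCs and -0.41 in TSCs. Wnt3 on day 2 against normoxia was at 0.21 in ESCs and -0.79 in TSCs. Of these values, those called DE in their own cell type were T in ESCs (2.05 and 1.72) and T in TSCs on day 7 against day 2 (-2.15).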

How the results depend on the processing

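No call changed its direction. For day 7 against normoxia in ESCs, 3 members were DE, and 1 (T) with the replicate number as a block, with leave-one-out counts from 0 to 4. The fit to the 4 libraries compared called 4, adding Mixl1 (adjusted p of 0.0949). Fgf8 there was also lost with no filter (adjusted p of 0.164), median-ratio scaling (0.144) and voom (0.161), and Wnt3 with a TPM above 1 (0.147). For day 7 against day 2, 1 member was DE, and 0 with no filter, the replicate block or the fit to 4 libraries (T at adjusted p of 0.105, 0.180 and 0.141), with leave-one-out counts from 0 to 2. For day 2 against normoxia in ESCs they ran from 0 to 2. In TSCs, day 7 against normoxia gave 1 with a pseudocount of 0.1 and 1 with voom, and day 7 against day 2 gave 1 with voom and 0 to 2 with a library left out. The block changed no other count. Between groups, the deviations of libraries with the same number correlated at -0.46 to 0.27, so the numbers were not taken to pair samples.

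Some changes that were not DE crossed 0. With median-ratio scaling, Mixl1 on day 7 against normoxia in TSCs was at 0.027 and Wnt3 at 0.13, and Wnt3 was at 0.10 with voom. With each library left out, in ESCs on day 2 against normoxia Gsc ran from -1.56 to 0.49, Foxa2 from -0.85 to 0.20 and Fgf8 from -0.061 to 0.73. On day 7 against normoxia Gsc ran from -0.98 to 0.76 and Foxa2 from -0.30 to 0.14, and against day 2 Gsc from -0.59 to 1.45 and Foxa2 from -0.28 to 0.77. In TSCs on day 2 against normoxia Mixl1 ran from -0.078 to 0.90, Gsc from -0.78 to 0.33 and Foxa2 from -0.014 to 0.21. On day 7 against normoxia Mixl1 ran from -0.71 to 0.45, Foxa2 from -0.54 to 0.019 and Wnt3 from -0.61 to 0.52, and against day 2 Mixl1 from -1.12 to 0.041. In XEN cells Tbx6 ran from -0.69 to 0.87 on day 7 against normoxia and from -0.41 to 1.15 against day 2, and Foxa2 from -0.087 to 0.13 against day 2. The cause was not tested. With 2 libraries per group and few reads, small changes of low members could not be seen.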
